A study of Oryza sativa Japonica Group with 6 samples.

Results

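Genes named for jasmonate biosynthesis, JAZ repressor genes and other genes of the TIFY family were examined in roots of 10-day-old rice seedlings (japonica cultivar TNG67) deprived of nitrogen for 1 h. A gene was taken as a member when its symbol or a synonym in the RefSeq gene annotation of rice carried a LOX, AOS, AOC, OPR, JAZ or TIFY name. This gave 39 of the 39387 annotated genes. Of these, 35 had a probe set tied to them alone, out of 17905 genes measured. They comprised 18 synthesis genes (6 lipoxygenases, 4 allene oxide synthases, 1 allene oxide cyclase and 7 members of the OPDA reductase family) and 17 TIFY genes, of which 13 are JAZ genes. The term synthesis gene refers to the name only, and some of these lipoxygenases and OPDA reductases may not make jasmonate. The other 4 annotated members, LOX4, OPR3, TIFY1B and a second copy of OPR1, had no probe set of their own and were not measured here. Several JAZ and OPR names are shared in the annotation (the gene called JAZ8 here also carries the name JAZ9, and JAZ1 also carries the name OsJAZ10), so the names used follow the TIFY numbering for JAZ genes.

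Roots in −N came from seedlings moved for 1 h to hydroponic solution without nitrogen, and roots in +N from seedlings in the same solution with ammonium nitrate as the nitrogen source. All seedlings had been raised in +N solution. Total RNA of 3 biological replicates of each treatment was hybridised to 1 GeneChip Rice Genome Array each, a single-colour oligonucleotide array on which several short probes form a probe set. By the labels both groups were moved to fresh solution, by the Methods only −N was. For +N replicate 3 a label also states 0.5 h, and the word reanalysis stands in the titles of −N replicates 1 and 2.

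The deposited intensities had array medians between 33.26 and 35.2. Arrays that share a replicate number deviated together from their group means. Exactly equal intensities, to the last deposited digit, occurred for 1866 to 2181 of the 57194 probe sets between the −N and +N arrays of each replicate number, and for 0 probe sets in the 12 pairs of arrays with different numbers. What a number marks is not given in the sources used here, and whether arrays of 1 number were grown, hybridised or normalized together was not tested. Values are therefore given both by group and within replicate pairs, as −N minus +N on the log2 scale. The labels call the replicates biological, but no source used here ties them to separate cultures. The spread behind a p-value is that between these arrays, which may be technical in part. The labelled tissue was checked on root markers, of which 8 genes were measured from 17 names. The dim limit was 34.2 intensity units (the median over probe sets), and 6 of the 8 were above it. The summed intensity of the 8 was 19450 to 23950 on −N arrays and 22440 to 31470 on +N arrays. Of their log2 differences, 4 were above 0 and 4 below 0, with a median of −0.002. Of these 8, the ammonium transporter gene AMT1-2 and the potassium transporter gene HAK1 had every −N array below every +N array, with log2 differences of −1.85 and −0.70 (adjusted p = 0.382 and 0.870 from limma). By its name, AMT1-2 is among the genes that the study lists as repressed by −N. It is thus not a marker independent of the treatment. Markers of green tissue also gave signal on these arrays and are described below.

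Jasmonates are fatty acid hormones of wounding, defence and root growth. In plastids, a lipoxygenase adds oxygen to linolenic acid, allene oxide synthase and allene oxide cyclase turn the product into the ring compound OPDA (oxophytodienoic acid), and in peroxisomes an OPDA reductase and beta-oxidation complete jasmonic acid, which JAR1 joins to isoleucine. The conjugate binds the receptor F-box protein COI1 together with a JAZ protein. JAZ proteins are repressors that hold transcription factors inactive with the help of the adaptor NINJA and corepressors of the TOPLESS type, and COI1 marks them for degradation. Many JAZ genes are themselves induced by jasmonate.

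Most members had higher intensities in −N than in +N, and the largest log2 differences were those of JAZ12, JAZ11 and JAZ13, at 1.47, 1.39 and 1.39. The next largest were 1.05 for CM-LOX1, 1.03 for JAZ9 and 1.02 for LOX1.1. Among the 17 JAZ and TIFY genes, 8 had all 3 −N arrays above all 3 +N arrays, against 3.98% of all genes, and 0 had them all below, against 5.32%. Among the 18 synthesis genes, 3 had all −N arrays above all +N arrays and 0 had them all below. The 3 were AOS2, CM-LOX1 and CM-LOX2, and both CM-LOX genes were below the dim limit on average. A log2 difference above 0 was measured in 16 of 17 JAZ and TIFY genes and in 15 of 18 synthesis genes, against 55.7% of all genes (44.3% were below 0). At an adjusted p under 0.05 from limma, 0 members passed in either direction, against 0.0223% of all genes that were higher and 0.0838% that were lower. At an unadjusted p under 0.05 from the same test, 7 JAZ and TIFY genes and 3 synthesis genes were higher in −N, against 2.17% of all genes, and 0 were lower, against 3.08%. JAZ9, JAZ11 and JAZ13 are among the 8 and among the 7. The study first selected them for a difference on these arrays, so here they are not independent evidence of a direction. It kept these genes and its lipoxygenase genes after separate quantitative RT-PCR showed a rise of more than 2-fold. That experiment is not part of the data used here. The lipoxygenase genes that the study selected lie on chromosomes 3 and 8 by their locus identifiers, which the tables used here do not pair with symbols. LOX1.1 on chromosome 3 and CM-LOX1 on chromosome 8 may be these genes, so they are not taken as independent evidence either.

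When the replicate number entered limma as a block, the adjusted test again called 0 members, against 0.212% of all genes that were higher and 0.408% that were lower. Among members, adjusted p from this blocked limma fit was lowest for LOX5, at 0.064, and JAZ13, at 0.0651. It was 0.0882 for AOS1, JAZ8 and LOX1.1, 0.095 for JAZ10 and 0.0981 for JAZ11. It was 0.11 for AOS2, 0.114 for JAZ9, 0.126 for JAZ12, 0.177 for CM-LOX1 and 0.197 for JAZ5. Below, LOX5, JAZ13 and LOX1.1 are given with both fits, and the other members named here with the fit without the block. At an unadjusted p under 0.05, the block moved the count of synthesis genes higher in −N to 10 and that of JAZ and TIFY genes to 9, against 12.8% of all genes, while 0 members were lower, against 7.89%. The count of 3 synthesis genes without the block also moved with single arrays. It was 0 without −N replicate 2, 1 without −N replicate 3, +N replicate 2 or +N replicate 3, and 6 without −N replicate 1.

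Within replicate pairs, 10 JAZ and TIFY genes and 10 synthesis genes were higher in −N in all 3 pairs, against 26.5% of all genes, and 0 members were lower in all 3, against 17.5%. At least 2-fold higher by the group means of log2 values were 4 JAZ genes and 2 synthesis genes (LOX1.1 and CM-LOX1), against 0.765% of all genes, and 0 members were at least 2-fold lower, against 1.4%. This fold is the size of cutoff by which the study chose its genes before quantitative RT-PCR. Of these JAZ genes, JAZ9, JAZ11 and JAZ13 were chosen that way on these arrays, and LOX1.1 and CM-LOX1 may have been. JAZ12 is the other gene. The study does not name JAZ12 among the genes it kept after quantitative RT-PCR. Whether JAZ12 was among the genes first chosen on the arrays is not given. The count thus follows largely from the choice on these arrays and is not independent evidence. The median log2 difference was 0.39 over the synthesis genes, 0.33 over the JAZ and TIFY genes and 0.73 over the JAZ genes alone, beside 0.03 over all genes (quartiles −0.11 and 0.18). The 4 TIFY proteins without a JAZ name had a median of 0.03.

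**Figure D1:**
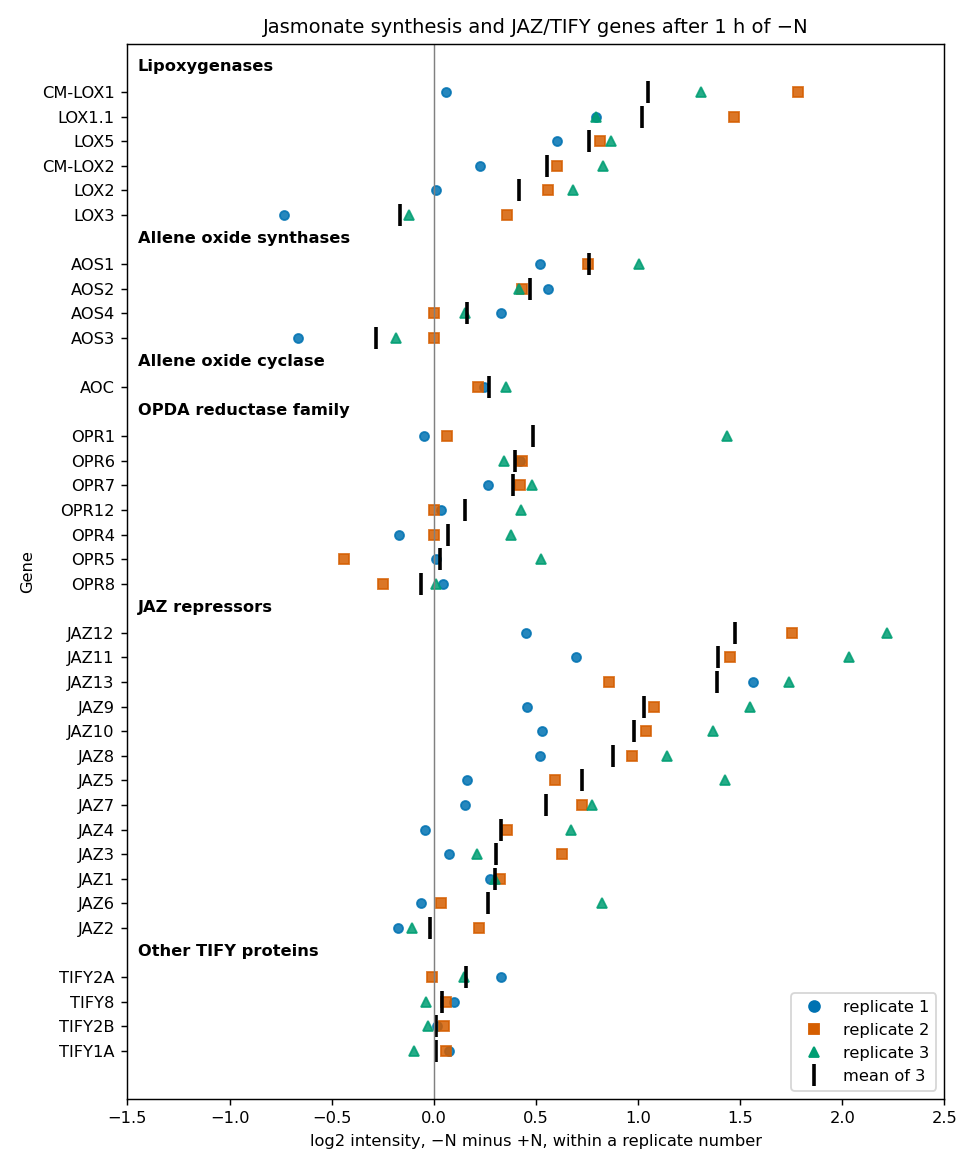
Log2 intensity in −N minus that in +N for each of the 35 measured members (rows, by role), with 1 point for each replicate number and a bar for the mean of the 3. In JAZ9 to JAZ13 every pair lies above 0, and in most of the JAZ genes replicate 1 is the lowest of the 3 pairs.

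The differences were not of 1 size over the replicates. The median over the 13 JAZ genes was 0.27 in the pair of replicate 1, 0.73 in replicate 2 and 1.14 in replicate 3, whereas the medians over all genes were −0.004, 0.05 and 0.06. For the 5 JAZ genes named TIFY11 it was 0.53, 1.08 and 1.74, and for the synthesis genes 0.14, 0.39 and 0.45. Genes used as markers of green tissue moved the other way, and 4 were measured from 23 names. All 4 measured (the Rubisco small subunit genes RBCS and RBCS1, the antenna gene CAB2R and the Rubisco activase gene RCA) had log2 differences below 0, with a median of −0.84 and pair medians of −1.76, −0.09 and −0.56 in replicates 1, 2 and 3. Their summed intensity was 6793 to 11440 on −N arrays, against 12860 to 21770 on +N arrays, and RBCS1 was below the dim limit. Their difference was thus largest in the pair in which that of the JAZ genes was smallest, and their part in the results was not tested. In whole roots, fewer cells of a type and less RNA per cell cannot be told apart.

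**Figure D2:**
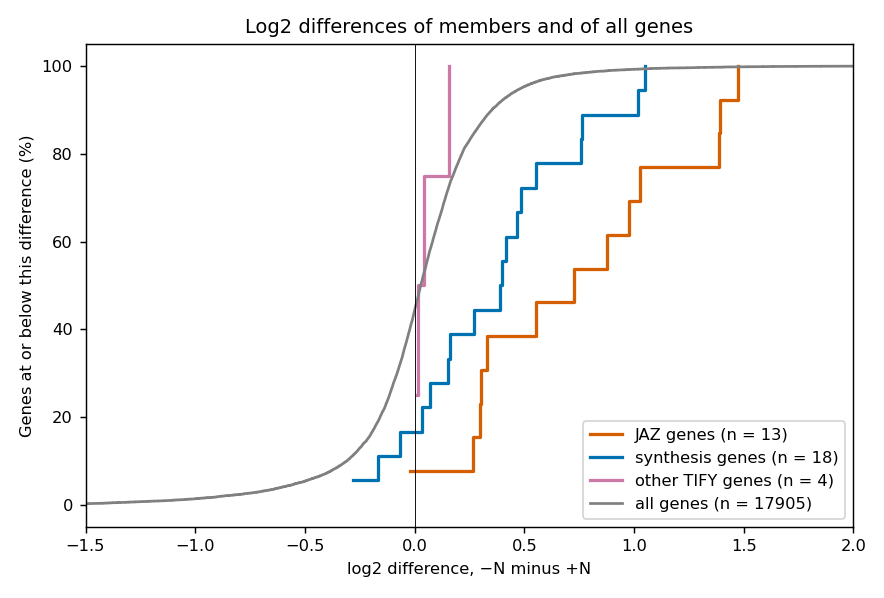
Share of genes (vertical axis, in percent) whose log2 difference, −N minus +N, is at or below the value on the horizontal axis. The 13 JAZ genes and the 18 synthesis genes lie to the right of the grey curve of all 17905 genes over most of their range, and the 4 other TIFY genes lie close to it.

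The JAZ genes named TIFY11 were described first. JAZ12 (LOC4348533, TIFY11D) had intensities of 308.7, 476.9 and 702.9 in −N replicates 1, 2 and 3, against 226.2, 141.6 and 151.2 in +N. Every −N array was above every +N array, and −N replicate 1 was the nearest to +N. The log2 difference of JAZ12 was 1.47 (SE 0.34), the 40th highest of 17905 genes, with an adjusted p = 0.405 from limma. Of all members, JAZ12 alone passed the adjusted threshold in any alternative. This happened in the blocked test without both arrays of replicate 1, where its log2 difference was 1.98 (adjusted p = 0.0406 from limma).

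JAZ13 (LOC4348531, TIFY11E) had intensities of 140.2, 121.3 and 221.6 on the −N arrays, against 47.52, 66.85 and 66.39 on the +N arrays. The groups did not overlap, and here replicate 1 was not the smallest pair, since its log2 difference was 1.56 beside 0.86 in replicate 2 and 1.74 in replicate 3. The mean log2 difference of JAZ13 was 1.39 (SE 0.29, adjusted p = 0.331, and 0.0651 with the block, both from limma). JAZ13 and JAZ12 lie near each other on chromosome 10, with 2 protein-coding genes between them in the order of the annotation.

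JAZ11 (LOC4331833, TIFY11C) had intensities of 380.0, 327.5 and 404.2 in −N, against 234.6, 119.8 and 98.71 in +N. The −N arrays were close to each other, and the spread of JAZ11 came from +N, where replicate 1 was the highest. Its log2 difference was 1.39 (SE 0.33, adjusted p = 0.413 from limma). JAZ9 (LOC4331832, TIFY11A) had intensities of 107.5, 146.6 and 168.1 in −N, against 78.28, 69.33 and 57.56 in +N. All −N arrays of JAZ9 were above all +N arrays. The log2 difference of JAZ9 was 1.03 (SE 0.25, adjusted p = 0.413 from limma), with −N over +N between 1.37-fold and 2.92-fold within pairs.

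JAZ10 (LOC4331834, TIFY11B), which the study does not name among its selected JAZ genes, had intensities of 543.7, 880.0 and 1051 in −N, against 376.8, 427.7 and 407.6 in +N. The groups did not overlap. Its log2 difference was 0.98 (SE 0.28, adjusted p = 0.530 from limma), and a second probe set of the gene gave 0.68. The brighter probe set of JAZ10 is of a type whose probes can also match related transcripts. The same limit holds for the probe sets used for JAZ2, JAZ4, JAZ6 and TIFY2B. JAZ9, JAZ11 and JAZ10 follow each other on chromosome 3 with 0 protein-coding genes between them, with 6 such genes between JAZ9 and the lipoxygenase gene LOX2.

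The 5 genes named TIFY11 all had −N arrays above +N arrays (against 3.98% of all genes) and an unadjusted p under 0.05 in limma (against 2.17%), and their median log2 difference was 1.39, beside 0.32 for the other 8 JAZ genes. This grouping was read from the names after the values were seen, and at least 3 of the 5 were selected by the study. The difference between both sets of JAZ genes was not tested.

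**Figure D3:**
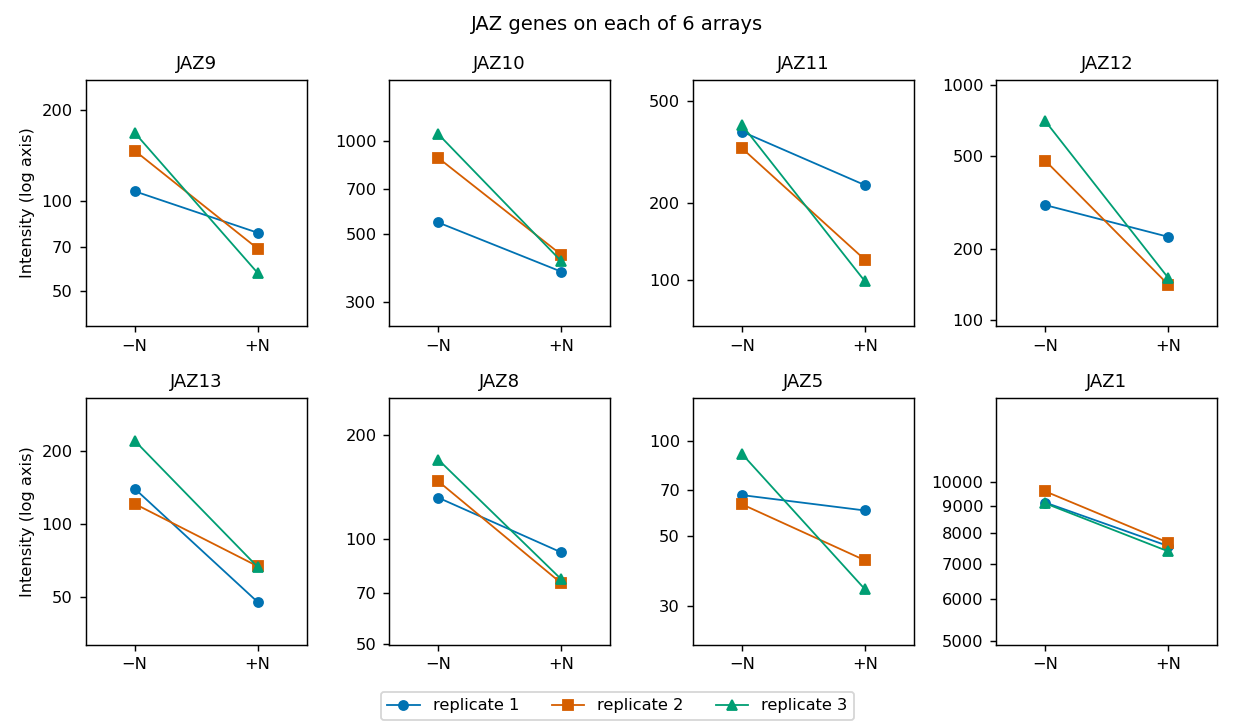
Intensities (logarithmic axes, 1 panel per gene, each with its own range) of 8 JAZ genes on the 3 −N arrays (left in each panel) and the 3 +N arrays (right), with lines joining arrays of the same replicate number. In each panel all −N arrays are above all +N arrays, and in JAZ9, JAZ11, JAZ12, JAZ8 and JAZ5 the +N array of replicate 1 is the highest of +N.

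Outside TIFY11, JAZ8 and JAZ5 also had an unadjusted p under 0.05. JAZ8 (LOC4347164, TIFY10C) had intensities of 131.8, 146.9 and 169.5 in −N, against 91.82, 74.92 and 76.9 in +N. The groups were apart in JAZ8, with a log2 difference of 0.88 (SE 0.21, adjusted p = 0.405 from limma). JAZ5 (LOC4335698, TIFY9) had intensities of 67.31, 62.97 and 91.07 in −N, against 60.15, 41.82 and 33.87 in +N. In JAZ5 the lowest −N array and the highest +N array were nearly at the same level, and the log2 difference was 0.73 (SE 0.28, adjusted p = 0.810 from limma).

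JAZ1 (LOC4337240, TIFY3) had the smallest difference of the members whose groups did not overlap. Its intensities were 9136, 9592 and 9103 in −N, against 7559, 7675 and 7387 in +N. The pairs of JAZ1 were nearly alike, between 1.21-fold and 1.25-fold, with a log2 difference of 0.30 (SE 0.18, adjusted p = 1 from limma, and 0.168 with the block). The other JAZ genes overlapped between groups. Their log2 differences were 0.55 for JAZ7, 0.33 for JAZ4, 0.30 for JAZ3, 0.27 for JAZ6 and −0.02 for JAZ2, which was below the dim limit on average. Of these, JAZ7 and JAZ3 were higher in −N in all 3 pairs, and most of the difference of JAZ6 came from replicate 3 (0.82, beside −0.06 and 0.04 in replicates 1 and 2).

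The TIFY proteins without a JAZ name include the GATA-type zinc finger proteins TIFY1A, TIFY2A and TIFY2B. Their log2 differences were 0.01 for TIFY1A, 0.16 for TIFY2A and 0.01 for TIFY2B, and 0.04 for TIFY8, which was below the dim limit. None of the 4 was on the same side in all 3 pairs, and each of them turned sign when some array or replicate pair was left out.

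The 6 lipoxygenase genes had a median log2 difference of 0.66. Plastid lipoxygenases that oxygenate carbon 13 of linolenic acid open the jasmonate pathway, whereas those that oxygenate carbon 9 feed other oxylipins, and the members were taken by name without regard to this position. The study describes its chromosome 3 lipoxygenase, which LOX1.1 may be, as a linoleate 9S-lipoxygenase. It places that gene in jasmonic acid synthesis all the same. LOX1.1 (LOC4334049) had intensities of 277.4, 577.7 and 1229 in −N, against 160.1, 208.8 and 708.7 in +N. The groups overlapped widely and both arrays of replicate 3 were high, but −N was higher in each pair, by 1.73-fold to 2.77-fold. The log2 difference of LOX1.1 was 1.02 with an SE of 0.68 without the block and 0.17 with it (adjusted p = 1 and 0.0882 from limma). LOX5 (LOC4333823) had intensities of 1176, 2317 and 2506 in −N, against 774.3, 1318 and 1373 in +N. It showed the same arrangement, since both arrays of replicate 1 were low and the pairs ran from 1.52-fold to 1.83-fold. The log2 difference of LOX5 was 0.76, with an SE of 0.36 without the block and 0.10 with it (adjusted p = 1 and 0.064 from limma).

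CM-LOX1 (LOC4345993) was dim, with intensities of 18.19, 47.87 and 22.99 in −N, against 17.44, 13.91 and 9.302 in +N. The groups of CM-LOX1 did not overlap, but replicate 1 was nearly equal between treatments (1.04-fold), and −N replicate 2 stood above the other −N arrays. Its log2 difference was 1.05 (SE 0.40, adjusted p = 0.809 from limma). The neighbouring gene CM-LOX2, with 0 protein-coding genes between it and CM-LOX1 on chromosome 8, was also below the dim limit, with a log2 difference of 0.55 on its brightest probe set and of 0.07 and −0.02 on the other two. LOX2 had a log2 difference of 0.42, with a pair difference of 0.01 in replicate 1. LOX3, also named r9-LOX1 in the annotation, was the lipoxygenase below 0, with a log2 difference of −0.17. It had 93.74, 625.3 and 219.3 in −N, against 155.7, 487.3 and 238.7 in +N. LOX3 differed far more between replicate numbers than between treatments, and its pairs did not share a sign.

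**Figure D4:**
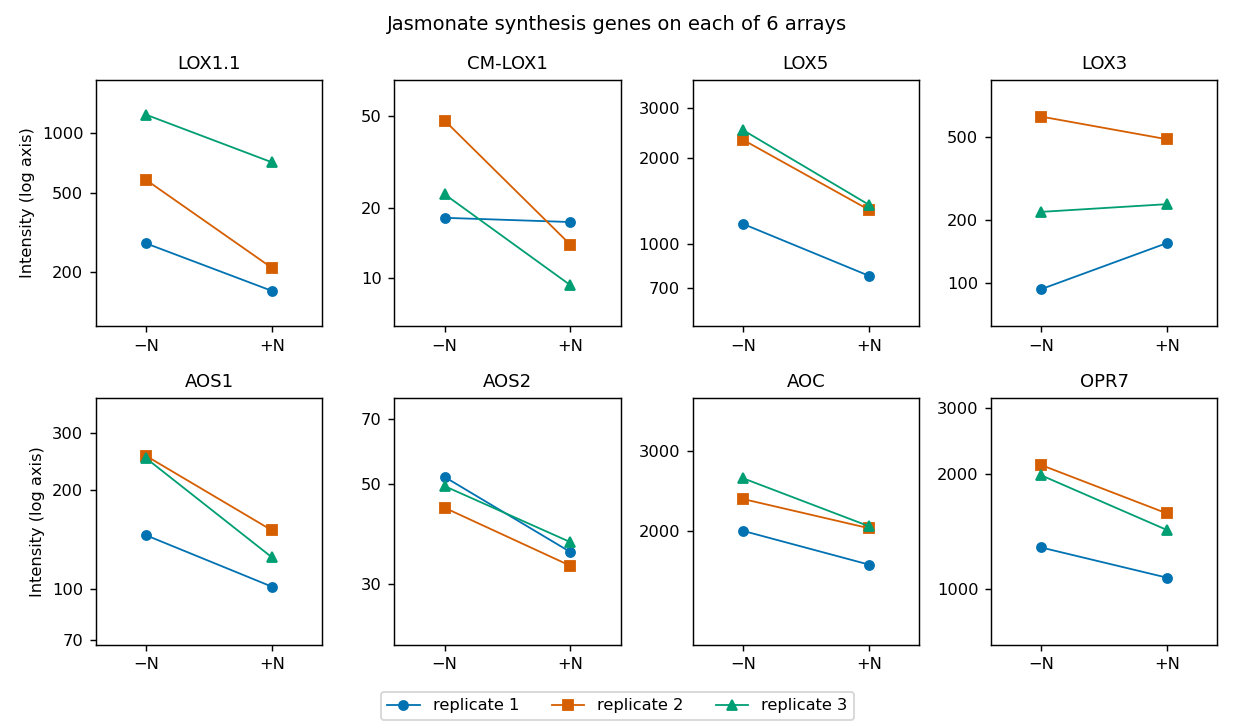
Intensities (logarithmic axes, 1 panel per gene, each with its own range) of 8 synthesis genes on the 3 −N arrays (left in each panel) and the 3 +N arrays (right), with lines joining arrays of the same replicate number. In LOX5, AOS1, AOC and OPR7 every line falls to the right and replicate 1 starts and ends lowest, and in LOX3 the lines do not share a direction.

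Allene oxide synthase is a cytochrome P450 of the CYP74 family and commits the lipoxygenase product to jasmonate. AOS1 (LOC4334233) had intensities of 145.9, 254.7 and 250.5 in −N, against 101.7, 151.0 and 124.9 in +N. Only −N replicate 1 fell within the range of +N, and every pair was higher in −N, with a log2 difference of 0.76 (SE 0.29, adjusted p = 0.809 from limma). AOS2 (LOC4332121) had intensities of 51.97, 44.34 and 49.57 in −N, against 35.29, 32.88 and 37.14 in +N. The groups of AOS2 did not overlap, and the log2 difference was 0.47 (SE 0.19, adjusted p = 0.895 from limma). AOS4 and AOS3, adjacent on chromosome 2, had log2 differences of 0.16 and −0.28. AOS3 was below the dim limit and was the synthesis gene with the lowest difference.

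Allene oxide cyclase, which sets the ring of OPDA, was represented by the gene AOC (LOC4333201). It had intensities of 1997, 2347 and 2608 in −N, against 1683, 2024 and 2045 in +N. The groups overlapped, but AOC was 1.16-fold to 1.28-fold higher in −N within pairs, with a log2 difference of 0.27 (SE 0.21, adjusted p = 1 from limma, and 0.201 with the block).

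In the OPDA reductase family, OPR7 is the rice enzyme known to reduce the OPDA that leads to jasmonic acid. OPR7 (LOC4345762) had intensities of 1283, 2116 and 1988 in −N, against 1068, 1577 and 1426 in +N. These groups overlapped, while the pairs were 1.2-fold to 1.39-fold higher in −N, with a log2 difference of 0.39 (SE 0.27, adjusted p = 1 from limma, and 0.138 with the block). OPR6 had a log2 difference of 0.40 and was also higher in all 3 pairs. OPR1 had the largest log2 difference of the family, 0.48, with a pair difference of 1.44 in replicate 3, beside −0.05 and 0.06 in replicates 1 and 2. The remaining log2 differences were 0.15 for OPR12, 0.07 for OPR4, 0.03 for OPR5 and −0.06 for OPR8. OPR12, OPR4 and AOS3 are among the probe sets listed at exactly the same intensity on both arrays of replicate 2. OPR6, OPR5, OPR4, OPR3, OPR1 and the second OPR1 copy follow each other on chromosome 6.

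Other genes of the pathway were taken from lists of names for linolenate supply, the hydroperoxide lyase branch, beta-oxidation, conjugation and turnover, perception and transcription, and jasmonate-inducible genes. By symbol or synonym, 14 genes could be measured, 0 from the 12 names for linolenate supply and the 3 for hydroperoxide lyase. Measured were 1 gene from 16 names for beta-oxidation, 1 from 23 for conjugation and turnover and 7 from 23 for perception and transcription. For jasmonate-inducible genes it was 5 from 19 names. Most names were thus not covered, and the 14 do not stand for the rest of the pathway. A jasmonate-induced protein gene that the study lists as induced is not among them. The median log2 difference of the 14 was 0.05. In limma 0 of the 14 passed the adjusted threshold, and at an unadjusted p under 0.05 1 was higher (7.14%, against 2.17% of all genes) and 0 were lower (against 3.08%). With the block 1 was higher (against 12.8%) and 1, PBZ1, was lower (against 7.89%). The gene higher in both fits, BHLH148 (LOC4334060), encodes a basic helix-loop-helix protein that binds a JAZ protein in rice. BHLH148 had intensities of 72.88, 115.6 and 153.2 in −N, against 61.41, 57.15 and 52.68 in +N. All its −N arrays were above all its +N arrays, with the smallest pair again in replicate 1 (0.25, beside 1.02 and 1.54 in replicates 2 and 3 on the log2 scale). The log2 difference of BHLH148 was 0.93 (SE 0.29, adjusted p = 0.603 from limma).

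The receptor and corepressor genes differed little. The log2 differences were −0.02 for COI1, 0.02 for COI1B, 0.12 for COI2, 0.14 for NINJA, and −0.03 and 0.06 for the TOPLESS-related genes TPR1 and TPR3, with SEs between 0.23 and 0.42. JAR1, which makes the active conjugate, had a log2 difference of 0.20 (SE 0.33), and MFP, a multifunctional protein of beta-oxidation, one of −0.07 (SE 0.24). Among 5 genes listed as inducible by jasmonate, the log2 difference was 0.39 for the MYB gene JAMYB, 0.14 for the chlorophyll b reductase gene NYC1, 0.04 for the stay-green gene SGR and 0.01 for the lectin gene SALT. The fifth, the pathogenesis-related gene PBZ1, had intensities of 161.2, 159.7 and 115.5 in −N, against 233.2, 639.7 and 172.1 in +N. Every −N array of PBZ1 was below every +N array, with +N replicate 2 far above the rest, and the log2 difference was −1.04 (SE 0.47, adjusted p = 0.999 from limma).

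**Figure D5:**
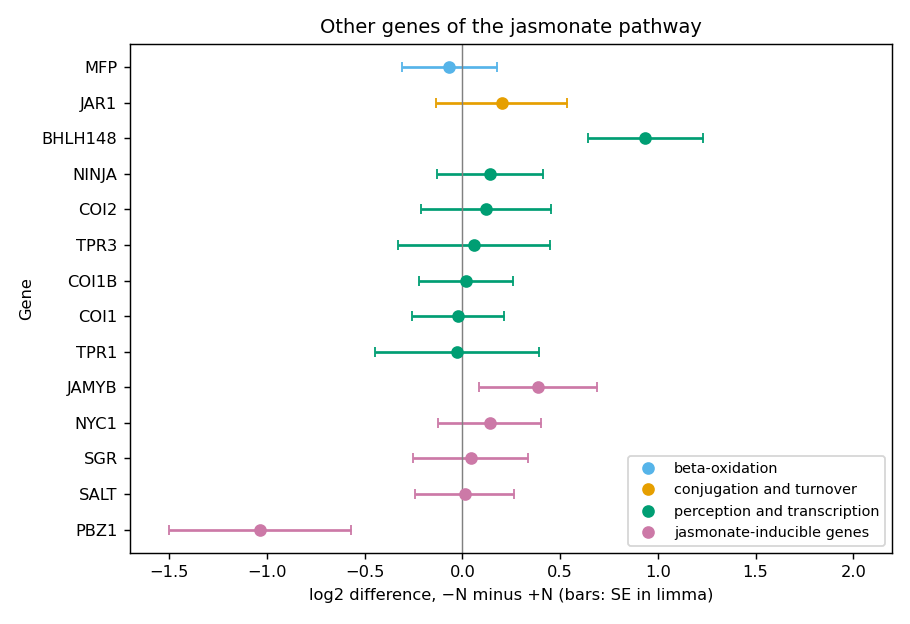
Log2 difference, −N minus +N, of 14 other genes of the jasmonate pathway, with bars for the SE from limma and colours for the list. Of the 14, BHLH148 is the highest at 0.93 and PBZ1 the lowest at −1.04, and the receptor, adaptor and corepressor genes lie near 0.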

How the data were processed

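Total RNA of rice roots was measured on 6 arrays, 3 in −N and 3 in +N. The authors deposited 1 linear intensity per probe set and array. GCOS and RMA are named in the submitters' processing notes, without their order or versions. Of 57381 probe sets, 187 controls were left out and 22436 were tied to 1 gene, and the brightest probe set stood for a gene. Values were taken to log2 without a pseudocount and fitted in limma 3.58.1 (R 4.3.3; lmFit, then eBayes), two-sided, with Benjamini-Hochberg adjustment over 17905 genes. The number of arrays limits the precision.

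Deviations from the group means correlated at 0.785, 0.664 and 0.653 between −N and +N arrays of replicates 1, 2 and 3, and between −0.547 and 0.0846 for unequal numbers. All 3 are over 0.1, and the numbers were treated as pairs on this ground. This comes from the data and not from the labels, and what produced the correlation was not tested. The fit without the block remained the reported one, as planned. In it, deviations shared within a pair stay in the SE, so its adjusted p can be larger than with the block.

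Names came from the platform annotation and RefSeq (assembly ASM3414082v1, used for names and gene order). The members and lists were chosen with earlier results of these data known. Values on every array were given for JAZ9, JAZ11 and JAZ13, for members with an unadjusted p under 0.05 and for the 3 largest differences of each group. Of each other list up to 3 genes, those with the lowest unadjusted p, were named. The array values of LOX3, JAZ1, AOC and OPR7 and the remaining names were added after their values were seen. Alternatives were the replicate block, quantile normalization, median centring, a pseudocount of 16, leaving out dim probe sets, the mean of probe sets, and arrays or pairs left out. Protein and promoter sequences were not analysed here.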

Additional observations from a re-analysis of the deposited data

How the results depend on the processing

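Over 16 alternatives, 518 log2 differences of single members kept their direction and their side of the adjusted threshold, 34 turned sign and 1 passed the threshold. The count of called synthesis genes stayed at 0 in all of them. That of JAZ and TIFY genes was 0, except that leaving out a replicate pair with the block gave 0 to 1, the 1 being JAZ12 without replicate 1. With the replicate block, 10 synthesis genes were higher at an unadjusted p under 0.05, with quantile normalization 6, and with both 9 (the last was chosen after seeing the data). This count ran from 0 to 6 with single arrays left out and from 5 to 9 with pairs left out under the block, and that of JAZ and TIFY genes from 6 to 9 and from 6 to 11. The block changed no call at the adjusted threshold. The median log2 difference over arrays and pairs left out ran from 0.256 to 0.485 for synthesis genes and from 0.275 to 0.611 for JAZ and TIFY genes.

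With single arrays left out, log2 differences that turned sign ran from −0.061 to 0.30 for OPR12, −0.13 to 0.37 for OPR4, −0.21 to 0.18 for OPR5, −0.17 to 0.025 for OPR8, −0.87 to 0.50 for LOX3, −0.17 to 0.10 for JAZ2, −0.17 to 0.41 for TIFY2A, −0.17 to 0.25 for TIFY8, −0.059 to 0.083 for TIFY2B and −0.16 to 0.16 for TIFY1A. With pairs left out under the block, they ran from −0.086 to 0.19 for OPR4, −0.21 to 0.27 for OPR5, −0.12 to 0.028 for OPR8, −0.43 to 0.12 for LOX3, −0.013 to 0.43 for JAZ6, −0.14 to 0.057 for JAZ2, −0.0047 to 0.033 for TIFY2B and −0.019 to 0.067 for TIFY1A (JAZ2 was at 0.023 without replicate 3 and TIFY1A at −0.012 without replicate 2). With quantile normalization, with and without the block, TIFY2B was at −0.0005. The causes were not tested. Means below 34.2 limit what can be read for 7 members (JAZ2, OPR4, OPR12, TIFY8, AOS3, CM-LOX1 and CM-LOX2). The planned description of member proteins and promoters was not run.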
